A study of Zea mays with 18 samples.

Results

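The genes described here are those that were clearly expressed in the leaf of maize seedlings after heat and silent in that of control seedlings. A gene belonged to the set when it had an FPKM of at least 5 in each of the 3 heat (F1) libraries and at most 3 counts in each of the 3 control (CF1) libraries. FPKM is the number of counted fragments scaled by the exonic length of the gene and by the library total. The rule selected 44 of the 39471 genes in the table. Both conditions used the expression values of these 6 libraries, so the levels of the 44 genes are a description and carry no test.

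RNA came from the third leaf of seedlings of An'nong 591, the F1 hybrid of the inbred lines CB25 and CM1. For the F1 group, seedlings spent 2 d at 42 °C by day and 35 °C by night, with daily watering. Those of the CF1 group stayed under non-stress conditions. All were raised at 28 °C by day and 23 °C by night, with 16 h of light and 8 h of dark. Both groups had the same hybrid genotype, with 3 biological replicates per group. The labels give no pairing between the groups, and none was assumed. The parental libraries were not analysed here, so the set is known in 1 hybrid, 1 organ and 1 time point.

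In plants, heat unfolds proteins and activates heat stress transcription factors, which bind heat shock elements in the promoters of chaperone genes. Small heat shock proteins hold unfolding proteins in a soluble state, and the large ATP-dependent chaperones (HSP70, HSP90, HSP101 and the chaperonins) refold them or dissolve aggregates. Many small heat shock protein genes have almost no transcript in unstressed leaves, and dehydrins and other proteins known from maturing seeds also accumulate in leaves under stress.

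The 6 libraries held 12266758 to 14643512 counts on genes and 24325 to 26718 detected genes. Their composition differed between the groups. Named leaf genes of photosynthesis summed to 7905.78 to 9452.89 FPKM in the F1 libraries and to 43481.8 to 51442.8 FPKM in the CF1 libraries. Of these, 13 of 13 were called lower in F1, beside 19.9% of all tested genes. The TMM factors, which scale libraries by the bulk of their genes, were 1.30 to 1.33 in F1 and 0.734 to 0.771 in CF1. A ratio F1/CF1 on library totals is thus 1.74 times that on TMM-scaled counts, and the ratios given here are TMM-scaled unless stated. Of the markers of other organs, 19 of 19 named seed storage genes had at most 3 counts in each CF1 library, with 15 of them at 0 in all 6 libraries, and summed to at most 0.36 FPKM in F1 and 0 in CF1. The 4 named pollen genes were at 0 in all 6 libraries, and zrp4, the single root marker found, was called lower in F1. Over the whole table, 16427 of 39471 genes had at most 3 counts in each CF1 library, and 10088 were at 0 in all 6. In whole leaves, fewer cells of a type and less RNA per cell cannot be told apart.

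The 44 genes collected 43556, 49721 and 41213 counts in F1 replicates 1, 2 and 3, against 23, 38 and 37 counts in CF1 replicates 1, 2 and 3. They were 0.299%, 0.340% and 0.288% of the counts of the F1 libraries. In single CF1 libraries, 16, 21 and 19 of the 44 genes had any count. The set was therefore small in number and unevenly filled. GRMZM2G331701 alone took 44.8% of the F1 counts of the set, and the 6 genes with the highest FPKM took 76.5%. Mean FPKM in F1 spanned 5.86 to 1393 with a median of 15.3, and 15 genes were at 20 FPKM or more.

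**Figure D1:**
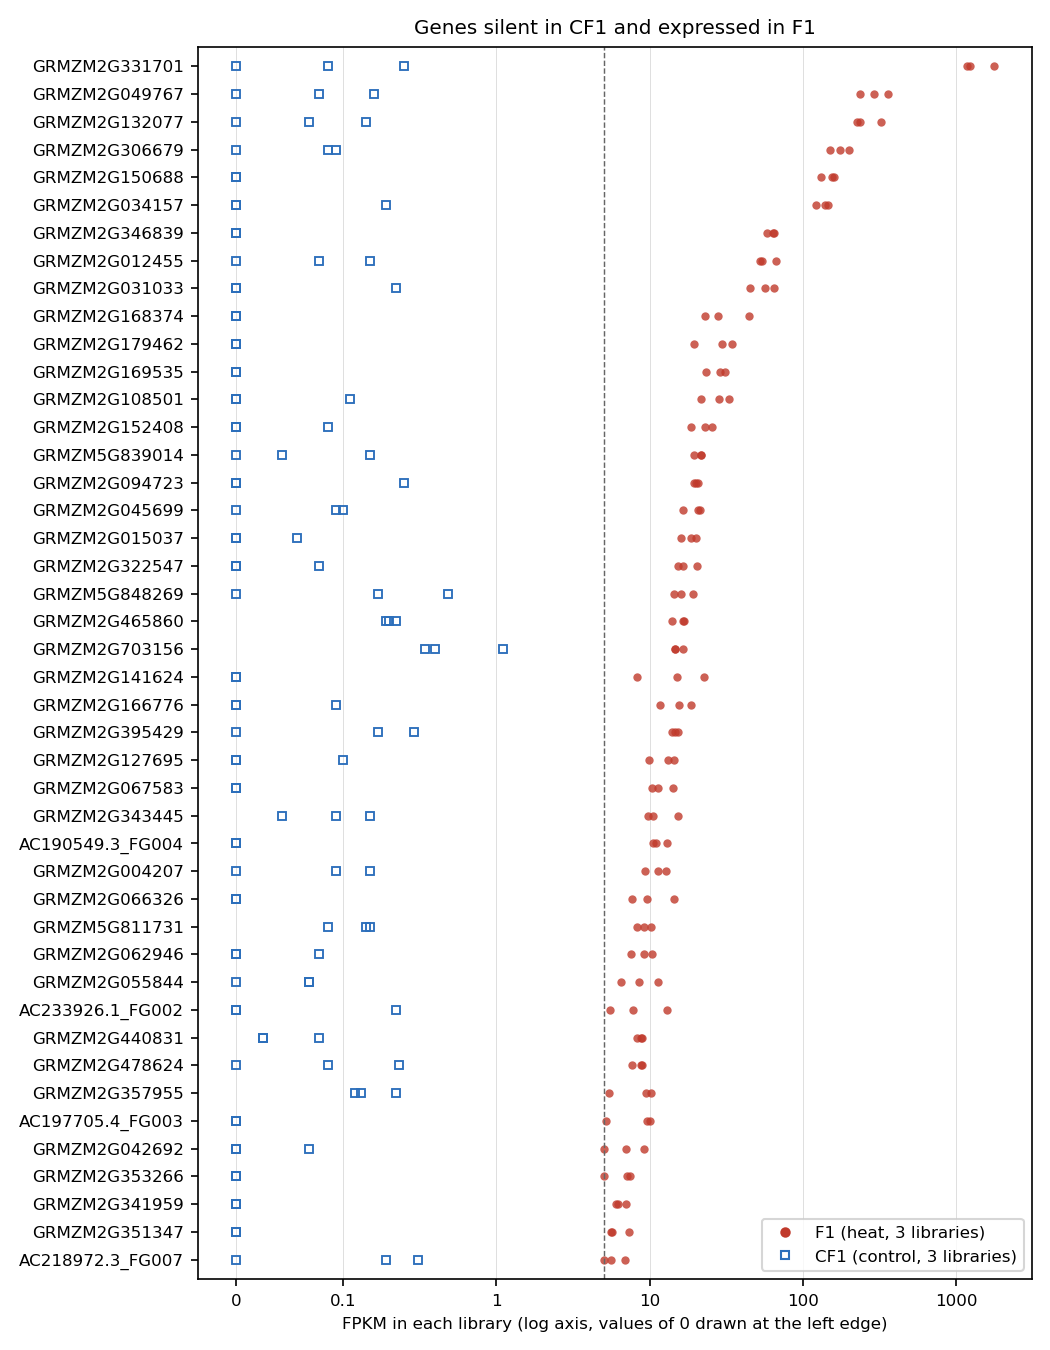
FPKM of each of the 44 genes in the 3 F1 libraries (filled circles) and the 3 CF1 libraries (open squares), with genes ordered by their F1 mean on a log axis, values of 0 drawn at the edge and the minimum of 5 FPKM as a dashed line. F1 values run between 5.06 and 1767.3 FPKM and CF1 values do not pass 1.11 FPKM.

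Named members were few. RefSeq (assembly NAM-5.0) held 26 of the 44 gene IDs (59.1%), against 69.1% of the tested genes and 47.9% of the whole table. For 25 of these 26 genes the symbol was a locus number without a descriptive name. The exception was hsp18c (GRMZM2G034157), a small heat shock protein gene. Its FPKM was 120.89, 146.67 and 139.59 in the F1 libraries, against 0, 0 and 0.19 in the CF1 libraries. The 3 F1 libraries lay close together, and the CF1 signal was 2 counts in 1 library. The ratio was 1320 (exact 95% counting interval 365 to 10906). How reads shared with near-identical small heat shock protein copies were counted was not examined.

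The 6 genes above 100 FPKM were the most abundant of the set, and hsp18c was the lowest of them. GRMZM2G331701 had 1179.21, 1767.3 and 1231.21 FPKM in F1 (1393 ± 326, SD, n = 3), against 0, 0.08 and 0.25 FPKM in CF1. It ranked 15 among all genes by mean F1 FPKM. With 60208 counts in F1 and 4 in CF1, its ratio was 7906 (3087 to 29016). This gene thus stood among the most abundant leaf transcripts in heat and at 0, 1 and 3 counts in the control libraries. RefSeq gives it no descriptive name.

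GRMZM2G049767 had 356.26, 235.36 and 292.12 FPKM in F1 and 0.07, 0.16 and 0 FPKM in CF1. GRMZM2G132077 had 324.14, 225.78 and 236.82 FPKM in F1 and 0.06, 0.14 and 0 FPKM in CF1. Replicate 1 was the highest F1 library for both genes, as it was for 14 of the 44 members in all. They also shared the same CF1 counts, 1, 2 and 0, which a further member, GRMZM2G012455, had too. The ratios of GRMZM2G049767 and GRMZM2G132077, 2119 (725 to 10275) and 2197 (752 to 10656), differed by far less than their counting intervals.

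GRMZM2G306679 had 174.11, 150.63 and 198.45 FPKM in F1 and 0, 0.08 and 0.09 FPKM in CF1, a ratio of 1894 (524 to 15644). It is the single member among the 19 genes that the study lists as heat-response genes with alternative splicing. Of the other genes on that list, the one lowest in CF1 had 9 counts in a CF1 library. The study made the list from this experiment, so it is not independent evidence about the gene. GRMZM2G150688 had 131.56, 159.53 and 155.84 FPKM in F1 and 0 counts in each CF1 library. Its ratio was at least 1009, set against a floor of 3 counts over the CF1 group. It had the highest level among the genes with no CF1 count.

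The 3 genes between 50 and 100 FPKM were similar in level and differed in their control counts. GRMZM2G346839 had 64.51, 64.01 and 58.55 FPKM in F1 and 0 counts in each CF1 library, so that its ratio was at least 502. GRMZM2G012455 had 52.54, 54.21 and 66.45 FPKM in F1, against 0.07, 0.15 and 0 FPKM in CF1. GRMZM2G031033 had 56.19, 64.48 and 45.08 FPKM in F1, against 0, 0 and 0.22 FPKM in CF1. Their F1 ranges overlap and their order by level is within the spread of the replicates. The ratios of GRMZM2G012455 and GRMZM2G031033 were 459 (157 to 2225) and 466 (129 to 3852).

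Next came 6 genes between 20 and 50 FPKM. GRMZM2G168374, the highest, had 44.55, 22.88 and 27.93 FPKM in F1 and 0 counts in each CF1 library, at least 238-fold higher in F1. Its replicate 1 stood well above the other two. GRMZM2G179462, GRMZM2G169535 and GRMZM2G108501 followed with F1 means of 27.7, 27.7 and 27.6 FPKM, which cannot be ordered beyond their spread. GRMZM2G152408 and GRMZM5G839014 closed the group with means of 22.4 and 20.9 FPKM. Of these 6 genes, 3 had no count in CF1.

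The remaining 29 genes were at lower levels. From 10 to 20 FPKM there were 16 genes, with single F1 libraries between 7.71 and 22.56 FPKM, and 13 genes had a mean under 10 FPKM, with single F1 libraries between 5.06 and 12.91 FPKM. In each of these groups 4 genes had no count in CF1. The smallest number of counts behind any F1 value was 25, in replicate 1 of AC233926.1_FG002.

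Silence in CF1 was not the same for all genes. No count at all was found for 13 genes, whose 3 CF1 libraries together allow up to 3 counts. A highest CF1 count of 1, 2 and 3 was found for 7, 14 and 10 genes, and no gene exceeded 6 counts over the group. Because FPKM divides by length, 3 counts in CF1 replicate 3, the smallest library, stood for 0.0821 FPKM in the longest member and for 1.20 FPKM in the shortest, with a median of 0.251. A CF1 library above 0.1 FPKM was found for 20 of the 44 genes. The highest CF1 value, 1.11 FPKM, belonged to GRMZM2G703156, the shortest gene at 204 bases, where it rested on 3 counts in replicate 2. Its F1 libraries had 16.5, 14.73 and 14.71 FPKM.

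The size of the difference could be bounded for every gene. For the 13 genes with no CF1 count the ratio was at least 33.3 to at least 1009, with a median bound of 110. For the other 31 genes it was 14.3 to 7906, with a median of 197. Counting error in CF1 left these ratios wide, with lower limits from 5.97 (GRMZM2G703156) to 3087 (GRMZM2G331701). The lower limit or bound was at least 10-fold for 42 genes and at least 100-fold for 16 genes. AC218972.3_FG007 was the other gene under 10-fold, with a ratio of 19.5 (8.22 to 60.9). On library totals the limits and bounds ran from 10.4 to 5365. The intervals and floors cover counting error only.

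**Figure D2:**
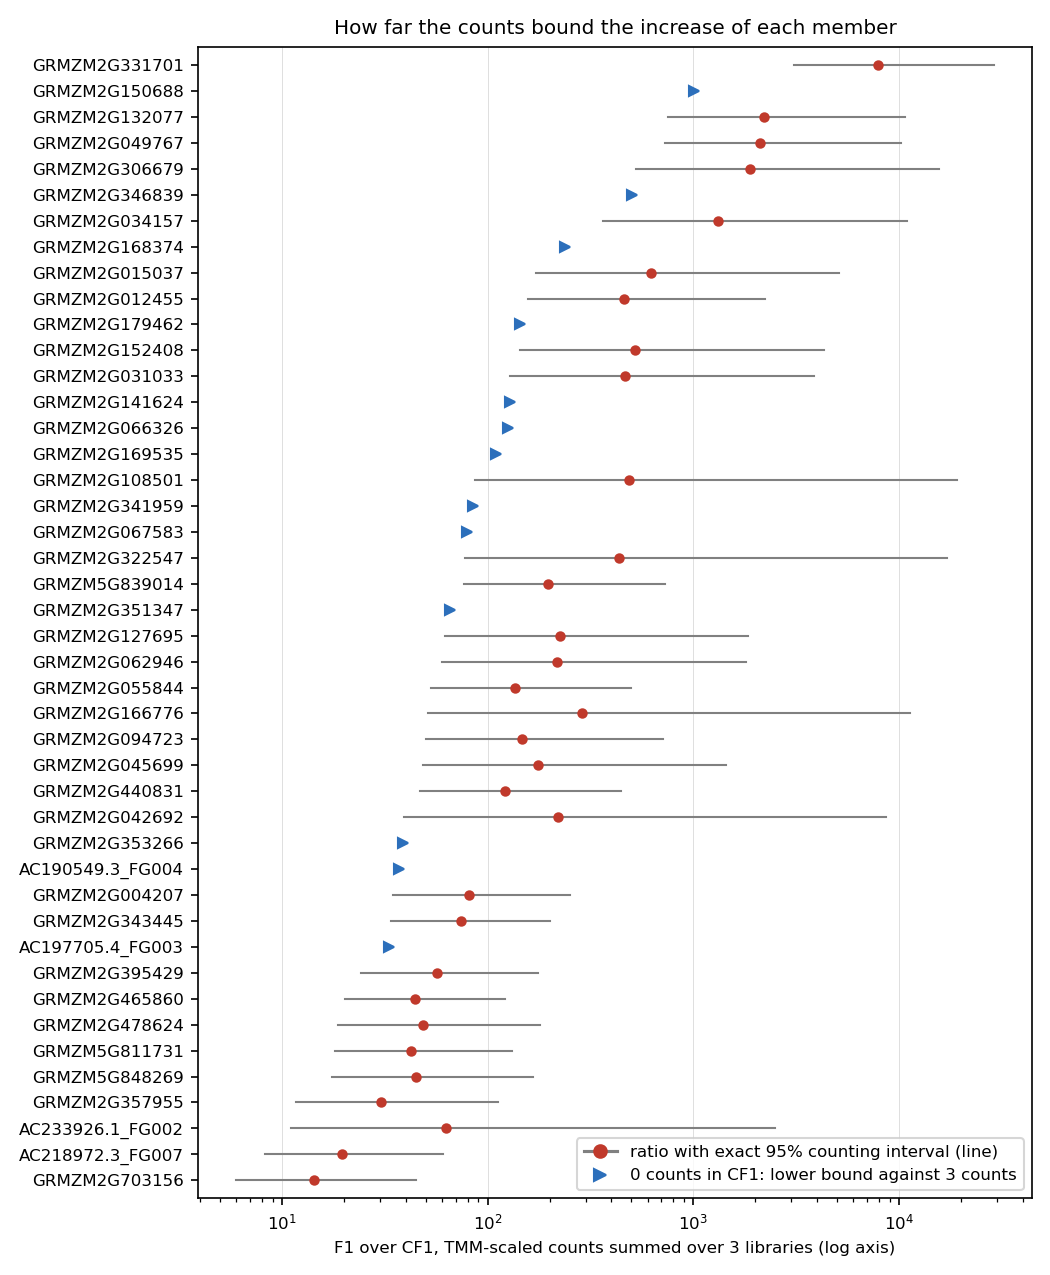
Ratio F1/CF1 of TMM-scaled counts for each of the 44 genes on a log axis, as a point with its exact 95% counting interval or, for genes with no CF1 count, as a lower bound against 3 counts over the group. The bounds of the 13 genes with no CF1 count run from 33.3 to 1009 and the ratios of the other genes from 14.3 to 7906.

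In edgeR's quasi-likelihood fit over the 20621 genes whose mean reached 1 FPKM in F1 or CF1, 4963 genes were called up in F1 (24.1%) and 4102 called down (19.9%, fold change of at least 2, FDR of at most 0.05). On library totals without TMM factors the split was 9278 up and 1900 down, and the median log2 fold change of all tested genes was 0.85 in place of 0.05. All 44 members were called up, which follows from the rule that chose them. Their median fitted log2 fold change was 8.60, beside 0.05 over all tested genes, and 7.13 when the ratios and bounds were used in place of the fit. They made up 0.887% of the up-regulated genes. With at most 3 counts in each CF1 library there were 498 up-regulated genes, the members among them, and the others were below 5 FPKM in at least 1 F1 library.

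The set was the upper end of a much larger group of genes with no or few counts in CF1. At most 3 counts in each CF1 library were found for 16427 genes, of which 12790 had none. In F1, 13643 of the 16427 (83.1%) again had at most 3 counts in each library, and 10088 were at 0 in all 6 libraries. More than 3 counts in each F1 library were found for 1210 genes (7.37%). An FPKM of at least 1 in each F1 library was reached by 354 genes, at least 2 by 162 and at least 5 by the 44 members (0.268%). Beyond the rule, 26 reached 10 FPKM in each F1 library, 12 reached 20 and 6 reached 100. The mirror rule, at most 3 counts in each F1 library and at least 5 FPKM in each CF1 library, selected 7 genes, among them the beta-glucosidase gene glu1. The 44 and the 7 genes both rest on deposited FPKM, which are scaled by library totals. With TMM-scaled FPKM the set held 35 genes, and the mirror rule was not recounted on that scale.

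**Figure D3:**
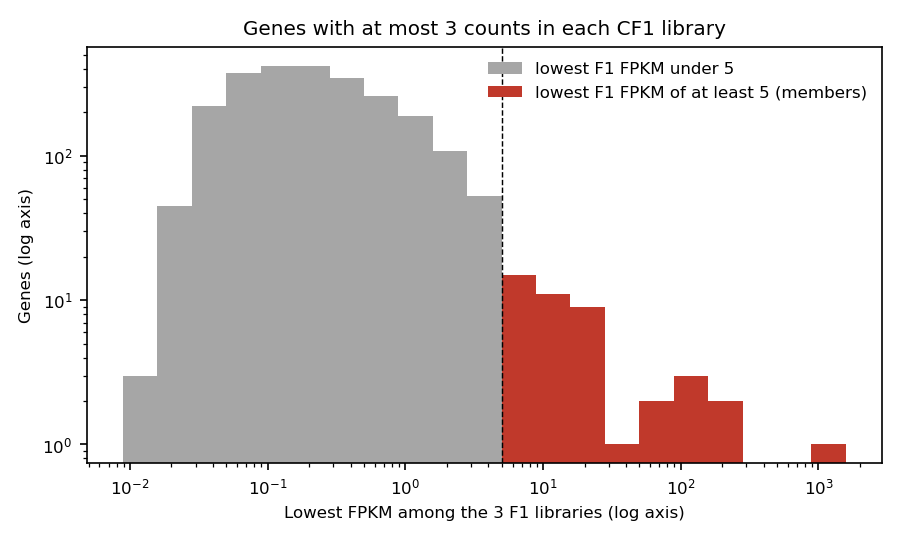
Numbers of genes (log axis) by their lowest FPKM over the 3 F1 libraries (log axis), for genes with at most 3 counts in each CF1 library, leaving out those with a value of 0, with the minimum of 5 FPKM as a dashed line. At least 1 FPKM was reached by 354 genes, and the 44 members, from 5 FPKM on, include a single gene above 1000 FPKM.

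Genes with similar values lay on both sides of each threshold. Just inside the FPKM minimum were GRMZM2G353266 (7.11, 5.06 and 7.41 FPKM in F1), GRMZM2G042692 (9.14, 7.01 and 5.06) and AC218972.3_FG007 (6.88, 5.62 and 5.07). Just outside were GRMZM5G844642 (5.52, 6.13 and 4.95), GRMZM2G022820 (6.11, 4.89 and 6.71) and GRMZM6G192875 (4.9, 7.14 and 4.87). The genes on either side had overlapping values in F1. A lowest F1 value from 5 to under 6 FPKM was found for 7 members, and one from 4 to under 5 for 15 genes that were left out.

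At the count limit, 10 members had 3 counts in a CF1 library, among them GRMZM2G331701, GRMZM5G839014 and GRMZM2G094723. A highest CF1 count of 4 excluded 17 genes that met the FPKM minimum, and counts of 4 to 10 excluded 98. The best known of the excluded genes is dhn1 (GRMZM2G079440, also rab17), a dehydrin of seeds and stressed leaves. It had 703.91, 682.12 and 388.43 FPKM in F1, with 3, 3 and 4 counts in CF1, so that a single count kept it out. GRMZM2G128617 had 354.58, 306.39 and 288.31 FPKM in F1 with 1, 4 and 3 counts in CF1, and GRMZM2G050077 had 138.48, 144.36 and 130.25 FPKM in F1 with 4, 0 and 0 counts in CF1. Genes with levels like the leading members therefore lie just past the count limit.

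The agreement of the F1 replicates was described by the coefficient of variation of FPKM, the SD as a percentage of the mean. For the members its median was 15.8% (3.09% to 46.8%). Over the 13176 tested genes of at least 5 FPKM in each F1 library it was 8.75%, and 36 of the 44 members were above that value. Since counts set the precision, genes of like count were also set side by side. Between 413.75 and 1569.5 counts over F1, the middle of the members' range, 22 members had a median of 16.1% and 6206 other genes 9.51%. Up-regulated genes outside the set had 10.3% in that range (1226 genes). Counting alone would give the members a median of 6.13%. These spreads are a description without a test, since members were chosen on the same 3 libraries.

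The most variable member was GRMZM2G141624, with 22.56, 15.12 and 8.24 FPKM in F1 (46.8%). AC233926.1_FG002 followed with 5.5, 12.91 and 7.83 FPKM (43.3%), on 119 counts in all. Then came GRMZM2G168374, described above (35.7%), AC197705.4_FG003 with 10.07, 9.62 and 5.18 FPKM (32.6%) and GRMZM2G066326 with 7.71, 9.67 and 14.34 FPKM (32.2%). The 5 genes did not share a highest library. The steadiest was GRMZM2G094723, with 19.32, 20.55 and 19.92 FPKM (3.09%), followed by GRMZM2G440831 (8.21, 8.78 and 8.86 FPKM, 4.11%) and GRMZM2G395429 (13.99, 15.28 and 14.55 FPKM, 4.43%). Only GRMZM2G141624 and AC233926.1_FG002 differed 2-fold or more between their highest and lowest F1 library.

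Which F1 library was highest varied from member to member. Replicates 1, 2 and 3 were the highest F1 library for 14, 19 and 11 members and the lowest for 16, 8 and 20. Over all tested genes of at least 5 FPKM in F1, replicates 1, 2 and 3 were the highest for 34.0%, 36.4% and 29.6% and the lowest for 31.6%, 29.0% and 39.5%. Replicate 3 was the most frequent lowest library in both. GRMZM2G331701 was highest in replicate 2, where it had 25676 counts, against 17033 and 17499 counts in replicates 1 and 3.

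The exonic length of the members had a median of 974.5 bases (204 to 2979), and 24 of the 44 (54.5%) were shorter than 1000 bases. The median was 1846 bases over the tested genes and 1819 bases over the up-regulated genes, of which 14.8% and 16.4% were shorter than 1000 bases. Over the 16427 genes silent in CF1, however, the median was 957 bases. A limit in counts and a minimum in FPKM both depend on length, so length is not independent of the rule. The 9 members of at least 50 FPKM were all between 737 and 1099 bases, a range that also held 13 of the other 35 members. GRMZM2G015037 was the longest member at 2979 bases, with 20.1, 18.59 and 16.05 FPKM in F1 and 2, 0 and 0 counts in CF1.

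**Figure D4:**
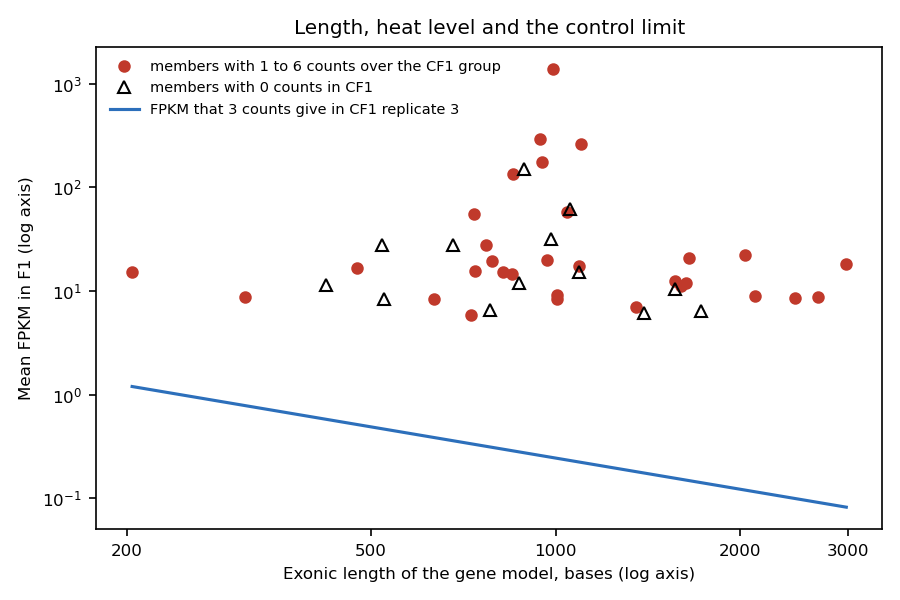
Mean F1 FPKM (log axis) against exonic length in bases (log axis) for the 44 genes, split into those with no CF1 count and those with 1 to 6, and a line for the FPKM that 3 counts give in CF1 replicate 3. The 9 genes of at least 50 FPKM lie between 737 and 1099 bases, and the 35 genes below that level lie between 204 and 2979 bases.

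The other named genes of the heat shock pathway mostly had more than 3 counts in a CF1 library and so lay outside the set. All 6 named small heat shock protein genes were called up, against 24.1% of all tested genes, with a median log2 fold change of 8.60. hsp18c was the one silent in CF1, and its call and its part in that median follow from the rule. hsp26 (GRMZM2G149647), for the chloroplast protein, had 5150.39, 4738.54 and 4769.51 FPKM in F1, against 1.65, 1.09 and 1.99 FPKM in CF1 (log2 fold change 10.80 ± 0.25, SE, edgeR FDR 1.02e-08). It reached a far higher level than hsp18c in F1, with 26, 16 and 27 counts in CF1. hsp 17.2 (GRMZM2G158232) had 3073.86, 2417.96 and 2990.31 FPKM in F1, against 17.88, 16.23 and 17.97 FPKM in CF1.

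hsp22 (GRMZM2G007729), for the mitochondrial protein, had 1092.23, 1317.38 and 1294.52 FPKM in F1, against 1.55, 2.32 and 3.85 FPKM in CF1. hsp18f (GRMZM2G083810) had 1017.6, 1137.24 and 1449.51 FPKM in F1, against 1.12, 0.89 and 1.84 FPKM in CF1. These genes had low but clear counts in every control library. hsp18a (GRMZM2G404249) was the nearest to the set, with 41.76, 54.17 and 49.65 FPKM in F1 and 2, 1 and 8 counts in CF1. In 2 of its 3 control libraries it met the count limit.

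**Figure D5:**
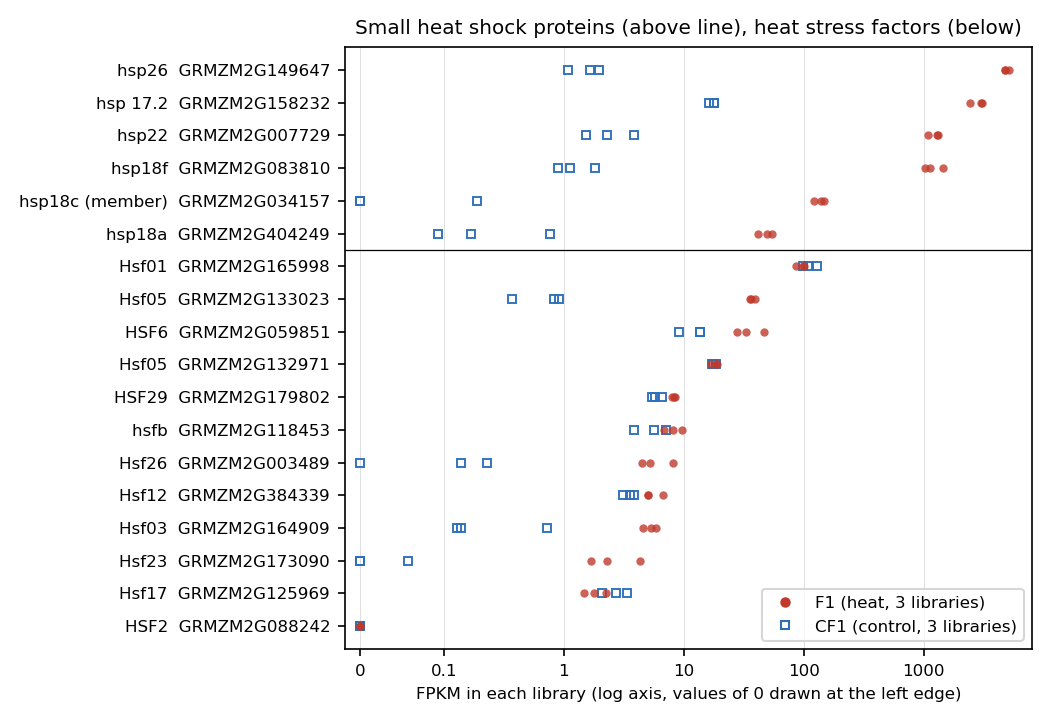
FPKM in each of the 3 F1 libraries (filled circles) and the 3 CF1 libraries (open squares) of the 6 named small heat shock protein genes and the 12 named heat stress transcription factor genes, on a log axis. The F1 values of hsp26 lie between 4738.54 and 5150.39 FPKM and its CF1 values between 1.09 and 1.99 FPKM, and hsp18c, with 0, 0 and 0.19 FPKM in CF1, is the one that belongs to the set.

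No named large chaperone gene was a member. Of 13 named genes, 12 were tested, 9 were called up and 0 down (24.1% and 19.9% over all tested genes), with a median log2 fold change of 4.08. The direction of HSP90-1 (GRMZM2G024668) and hsp70-4 (GRMZM2G340251) depended on the scaling. On TMM-scaled counts their log2 fold changes were −0.49 and −0.73, within the 2-fold threshold (edgeR FDR 0.00858 and 0.00105). On deposited FPKM, HSP90-1 averaged 148 in F1 and 119.6 in CF1, and hsp70-4 averaged 163 in F1 and 155 in CF1. Among the tested genes hsp82 (GRMZM5G833699), an HSP90 gene, came closest to silence, with 420.81, 484.75 and 617.7 FPKM in F1 and 7, 10 and 21 counts in CF1. hsp101 (GRMZM2G360681), the disaggregase, had 240.91, 265.04 and 295.44 FPKM in F1, against 1.22, 0.98 and 1.52 FPKM in CF1. The single large chaperone gene silent in CF1, hsp3 (GRMZM6G199466), was too low in F1 for the test, with 1.09, 0.27 and 0.41 FPKM.

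No named gene for heat stress transcription factors, which activate the chaperone genes, was a member either. The set holds 44 of the 39471 genes in the table, and only 1 member has a family name. Large chaperone, heat stress factor or further small heat shock protein genes without a name may therefore be in the set. Of 12 named genes, 11 were tested, 4 were called up and 2 down (24.1% and 19.9% over all tested genes), and the median log2 fold change was −0.12. The 4 genes called up and the 2 called down are named here after their values were seen. Hsf05 (GRMZM2G133023) had 35.42, 39.13 and 36.51 FPKM in F1, against 0.92, 0.37 and 0.83 FPKM in CF1. Hsf26 (GRMZM2G003489) had 4.51, 8.1 and 5.2 FPKM in F1, with 7, 4 and 0 counts in CF1. It missed both conditions of the rule. RefSeq gives the name Hsf05 to GRMZM2G132971 as well, which had 18.94, 18.47 and 17.05 FPKM in F1 and 18.44, 17.38 and 17.51 FPKM in CF1. On TMM-scaled counts the log2 fold change of GRMZM2G132971 was −0.77, within the 2-fold threshold (edgeR FDR 5.04e-05).

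Hsf03 (GRMZM2G164909) had 5.84, 5.33 and 4.57 FPKM in F1, with 3, 3 and 14 counts in CF1. Hsf23 (GRMZM2G173090) was silent in CF1, with 1, 0 and 0 counts, and its 2.28, 4.33 and 1.7 FPKM in F1 were below the minimum. Hsf01 (GRMZM2G165998), called down, had 85.88, 98.13 and 100.47 FPKM in F1 and 108.67, 98.35 and 128.04 FPKM in CF1 (log2 fold change −1.04). Hsf17 (GRMZM2G125969), also called down, had 2.25, 1.79 and 1.49 FPKM in F1 and 2.09, 3.36 and 2.75 FPKM in CF1 (−1.36). On library totals 5 of the family were called up and 0 down, so the 2 lower calls depended on the scaling. Without F1 replicate 1, or without CF1 replicate 3, 1 gene was called down.

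Of 24 named seed maturation and desiccation genes, 18 had at most 3 counts in each F1 library and 20 in each CF1 library, 15 were at 0 in all 6 libraries, and none was a member. In the whole table, 16427 of 39471 genes had at most 3 counts in each CF1 library, and 10088 were at 0 in all 6. The seed maturation group includes the seed storage genes counted above. Of the 5 tested genes 4 were called up (24.1% over all tested genes), and dehydrin7 (GRMZM2G002786) passed in neither direction (log2 fold change 0.12, edgeR FDR 0.629). Besides dhn1, these were dhn2 (GRMZM2G373522), a dehydrin gene with 81.47, 93.58 and 72.93 FPKM in F1 and 3.1, 2.57 and 6.21 FPKM in CF1, RAB15 (GRMZM2G165901) and Lea14A (GRMZM2G050607). Lea14A had no count in CF1 and 1.18, 0.75 and 1.88 FPKM in F1, too low for the set.

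Among the other named groups no gene was a member either. Other transcription factors counted 225 named genes, 58 of them silent in F1 and 67 silent in CF1. Of 130 tested, 30 were called up and 33 down, shares near the 24.1% up and 19.9% down of all tested genes. Those shares are also the background of the up and down counts that follow. For the counts of genes silent in CF1, the background is 16427 of the 39471 genes in the table. Cytochrome P450 genes, whose products oxidise hormones and secondary metabolites, had 3 of 15 silent in CF1, with 1 called up and 3 down of 8 tested. Glutathione S-transferase genes, for detoxification, had 7 of 32 silent in CF1, with 5 up and 8 down of 23 tested. Aquaporin genes, for water channels, had 4 of 24 silent in CF1, with 5 up and 5 down of 17 tested. These groups rest on gene names, which 43 of the 44 members lack, so they say nothing of the functions of those 43 genes.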

How the data were processed

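Seedling leaf RNA of the hybrid was sequenced in 3 libraries per group. The authors aligned reads to the B73 genome (RefGen_v3) with HISAT2 2.0.1, counted them per gene with HTSeq 0.6.1 and deposited raw counts. The deposited FPKM are those counts divided by exonic length and library total. The submitters' processing notes also name DESeq 1.10.1. The other 24 per-sample columns carry names that match no label and were not used here.

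The members, gene lists and alternatives were chosen with earlier results of these data known. Genes were named by rule: members with a name in a listed family, the 10 highest in F1, the 5 most and 3 least variable, the 5 with the largest lower bound, and 3 on each side of each threshold. Members named beyond it (the others from 20 to 50 FPKM, the shortest, the longest and those of equal length) and genes outside the set were chosen after their values were seen. Groups were compared by edgeR 4.0.16 (glmQLFit, TMM, Benjamini-Hochberg). DESeq2 1.42.0 and limma 3.58.1 on log2(FPKM + 1) or log2(FPKM + 0.1) were alternatives. Scripts were tested on simulated data. Ratios have exact 95% Poisson intervals or a floor of 3 counts. P-values set the difference between the groups against the spread of these libraries within groups. RefSeq (NAM-5.0) matched 18908 genes and gave names and gene order. Families of kinases, ubiquitin ligases, proteases, glycosyltransferases other than galactinol synthase, and transporters other than aquaporins could not be formed from its symbols. Promoter motifs, protein identity and the parental lines were not analysed here.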

Additional observations from a re-analysis of the deposited data

How the results depend on the processing

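The size of the set followed its thresholds. It held 13 genes with 0 counts required in each CF1 library, 142 with up to 10, 354 at 1 FPKM in each F1 library, 26 at 10 FPKM, 106 with means in place of each library and 25 with at most 0.1 FPKM in CF1, against 44. TMM-scaled FPKM gave 35 genes. Leaving out 1 library can only loosen the rule and gave 47 to 62 genes, all 44 members among them each time. Over all tested genes, 9278 were up and 1900 down on library totals, 7583 and 1574 by limma on log2(FPKM + 1), and 9239 and 1862 by limma on log2(FPKM + 0.1), against 4963 and 4102. Leaving out 1 library gave 8807 to 9113 calls, 4778 to 4974 of them up and 4002 to 4139 down. DESeq2 gave 8989 calls, and no filter on low values gave 10361. All 44 members were called up in each of the 12 other fits, and the 21 members named by rule kept their direction. Both results follow from the rule that chose the members and carry no test. Heat stress transcription factors called down fell to 0 on library totals and in both limma fits. The cause was not tested, and these counts were added after seeing the data.

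With the replicate number as a block, 8948 genes were called (4904 up, 4044 down), the 44 members among them. Same-numbered libraries deviated together little (correlations 0.0504, −0.0162 and 0.0292), and not every library correlated best with its own number, so the numbers were not taken as pairs.

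Depth limits the control side: 3 counts in CF1 replicate 3 stand for 0.0821 to 1.20 FPKM, and ratios carry wide counting intervals. The promoter window, motif and protein identity comparisons and the parental lines were not run.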

Other observations

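In the gene order of RefSeq NAM-5.0, the 26 placed members had 52 direct neighbours, and 0 of these were members. The closest members on a chromosome were 56 genes apart. Of the neighbours, 25 had an ID in the table, were tested and were no members, and 10 of them were called up (40%) and 5 down. Over all tested genes matched to RefSeq, 22.7% were called up. The order of that assembly may differ from that of RefGen_v3.

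The exonic length was the same to the base for GRMZM2G322547 and GRMZM2G141624 (1093 bases) and for GRMZM2G127695 and GRMZM2G066326 (1567 bases). GRMZM2G322547 had 20.3, 16.49 and 15.39 FPKM in F1, beside 22.56, 15.12 and 8.24 FPKM for GRMZM2G141624. GRMZM2G127695 had 13.24, 14.34 and 9.89 FPKM in F1, beside 7.71, 9.67 and 14.34 FPKM for GRMZM2G066326. Whether either pair shares sequence was not examined.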
